A study of Homo sapiens with 9 samples.

Results

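The genes described here encode 10 proteins through which tumour cells can restrain immune cells: CD274, PDCD1LG2, CD276, VTCN1, PVR, NECTIN2, CD47, IDO1, LGALS9 and TNFRSF14. They were taken by gene name from a table of read counts for 58735 genes, and all 10 were found in it and all 10 passed the filter on low counts that left 16928 genes for testing. The counts came from 9 RNA-seq libraries of OVCAR4, a human ovarian carcinoma cell line of high-grade serous origin, in which the predicted adhesion protein MPZL3 was depleted. The 3 control libraries (scr control) carried a scrambled short hairpin RNA, 3 libraries carried the hairpin shMPZL3 #1 and 3 carried shMPZL3 #2. After viral transduction all cells underwent 3 days of puromycin selection, so the controls shared transduction, a hairpin vector and selection with the knockdown cells, and each label gives a separate replicate of 1 cell line.

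Immune checkpoint ligands act by engaging receptors that dampen T cells, natural killer cells or macrophages. CD274 (PD-L1) and PDCD1LG2 (PD-L2) bind PD-1 on T cells, and both are classically induced by interferon-gamma, in part through the transcription factor IRF1. CD276 (B7-H3) and VTCN1 (B7-H4, a surface protein well known in ovarian carcinoma) belong to the same B7 family. PVR (CD155) and NECTIN2 (CD112) are nectin-family adhesion proteins that bind the inhibitory receptor TIGIT and the activating receptor CD226. CD47 binds SIRPA on macrophages and blocks engulfment, LGALS9 (galectin-9) binds HAVCR2 (TIM-3), and TNFRSF14 (HVEM) is a TNF receptor family member that engages BTLA. IDO1 is not a ligand but a cytosolic enzyme that converts tryptophan on the path to kynurenine. All values below are transcript levels and say nothing of protein at the cell surface.

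The promoters of 8 of the 10 genes, in 9 windows, were present in the promoter table, which was taken from RefSeq on GRCh38.p14 and holds 250 bases before to 50 bases after each transcription start. PDCD1LG2 and IDO1 are not among them. Each window was searched on both strands for the interferon-stimulated response element core GAAANNGAAA, which 3.57% of all 35116 promoter windows held, and for the gamma-activated site TTCNNNGAA, which 7.66% held. The 3 sequences below are the CD274 and LGALS9 stretches that carried matches and, for contrast, a VTCN1 stretch that carried none. Bases that belong to a match stand in capitals. The CD274 stretch lies at chr9:5450292-5450491 on the plus strand, upstream of the gene, the VTCN1 stretch at chr1:117210978-117211177 on the minus strand, upstream of the gene, and the LGALS9 stretch at chr17:27631169-27631198 on the plus strand, within the span of the LGALS9 gene.
CD274: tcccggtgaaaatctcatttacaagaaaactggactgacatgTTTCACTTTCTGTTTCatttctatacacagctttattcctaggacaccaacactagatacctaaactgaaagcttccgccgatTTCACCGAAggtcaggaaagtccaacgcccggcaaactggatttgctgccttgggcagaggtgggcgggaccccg
LGALS9: gttgctttggTTTCTATTTCtttgttaagt
VTCN1: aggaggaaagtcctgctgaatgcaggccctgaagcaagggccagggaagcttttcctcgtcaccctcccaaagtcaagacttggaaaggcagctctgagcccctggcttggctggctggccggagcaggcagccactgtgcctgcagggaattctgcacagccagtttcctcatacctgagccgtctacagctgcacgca

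The CD274 window held 2 overlapping response element cores, beginning at positions -208 and -202 relative to the start, and 1 gamma-activated site at position -125. The LGALS9 window held 1 core, which began at position -9 and ended on the start base. The windows of VTCN1, CD276, PVR, NECTIN2, CD47 and TNFRSF14 held neither motif in these letters. A match is a run of letters and not evidence that a factor binds there. Whether a match went with a change of the gene was not tested.

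The targeted gene fell in every knockdown library. MPZL3 measured 536, 611 and 587 normalised read counts in the scr control libraries, 119, 143 and 123 under shMPZL3 #1, and 285, 380 and 271 under shMPZL3 #2, so the 3 groups did not overlap and the depletion was deeper with shMPZL3 #1. A normalised read count is the deposited count scaled to the mean effective library size of the 9 libraries. The log2 fold change of MPZL3 was -2.17 (SE 0.16, adjusted p = 3.73e-07) with shMPZL3 #1 and -0.89 (SE 0.15, adjusted p = 0.000562) with shMPZL3 #2. Libraries held between 15040102 and 27835841 counts, and replicates of a group differed by more than counting noise, with a chi-square per gene of 3.17 to 23.7. The epithelial keratin KRT7 measured 39250 ± 606 normalised read counts in scr control (SD, n = 3), the adhesion gene EPCAM 8275 ± 472 and the Mullerian lineage factor PAX8 4628 ± 21.98, whereas WT1, another marker of serous carcinoma, was too low to test with 63 counts over all 9 libraries.

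In control cells the 10 genes spanned a wide range of levels. Per gene length, in TPM, read counts scaled for gene length and library total, VTCN1 stood at 278 ± 11.7, CD47 at 242 ± 23.7, PVR at 229 ± 9.60, NECTIN2 at 175 ± 7.96 and CD276 at 67.2 ± 5.48 (mean ± SD, n = 3). IDO1 followed at 11.7 ± 4.13, LGALS9 at 4.34 ± 1.60, CD274 at 1.59 ± 0.73, PDCD1LG2 at 1.08 ± 0.55 and TNFRSF14 at 0.27 ± 0.27. VTCN1, CD47, PVR and NECTIN2 lay between the 95.2 and 97.3 percentiles of the genes tested, and the PD-1 ligands CD274 and PDCD1LG2 at the 18.6 and 14.0 percentiles. Neighbours in this order whose control libraries overlapped were CD47 and PVR, CD274 and PDCD1LG2, and PDCD1LG2 and TNFRSF14. The lowest gene, TNFRSF14, rested on 0, 22 and 8 reads in the control libraries, so its level was close to the limit of detection.

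**Figure D1:**
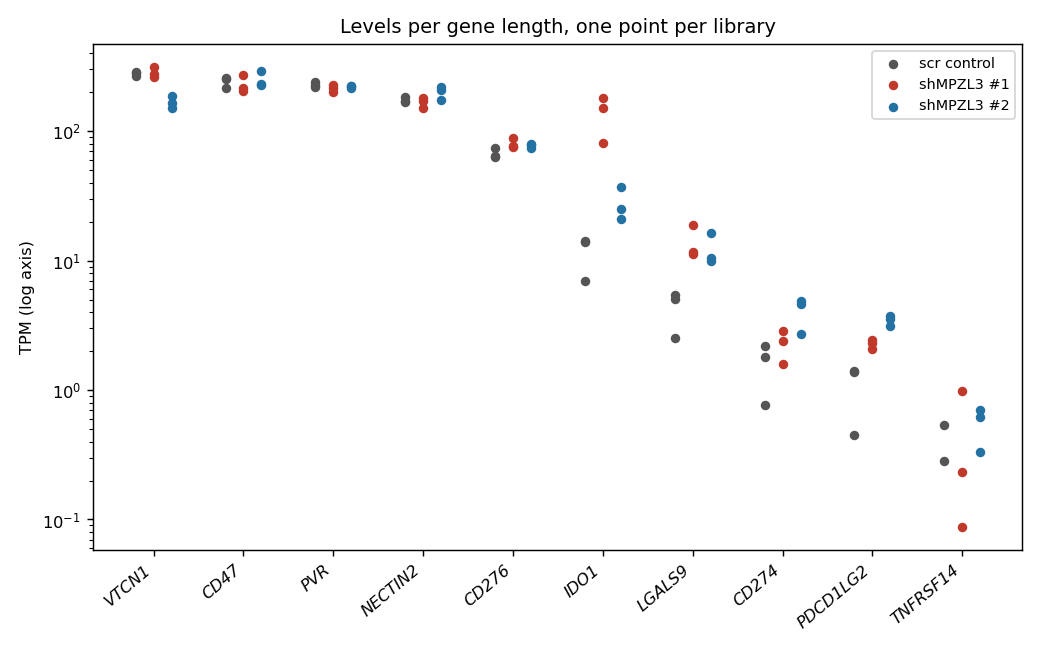
TPM of each gene on a log axis, one point per library, ordered by the mean in scr control. VTCN1, CD47, PVR, NECTIN2 and CD276 sit above 60 TPM in every library, and IDO1 with shMPZL3 #1 reaches the range of these genes. The scr control library in which TNFRSF14 had 0 reads has no point on the log axis.

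With both hairpins taken as 1 knockdown group, as the study's methods do, IDO1, LGALS9 and PDCD1LG2 rose and none of the 10 genes fell. That is 3 of 10 called higher at an adjusted p under 0.05 (edgeR quasi-likelihood test over 16928 genes), where 9.36% of all genes tested were called higher and 6.4% lower. The other 7 genes did not pass, and their log2 fold changes ran from -0.27 (VTCN1) to 1.02 (CD274). The median log2 fold change of the 10 genes was 0.55, beside 0.02 over all genes tested. In 4 genes, IDO1, LGALS9, PDCD1LG2 and CD276, all 6 knockdown libraries stood above all 3 control libraries, which held for 11.8% of all genes tested, and 0 of the 10 had all 6 below, which held for 11.0%. Each of the grouped calls of IDO1 and PDCD1LG2 was lost when any 1 of the 3 control libraries was left out, which left LGALS9 as the single call. The libraries are bulk RNA, in which a larger share of cells with a transcript and more of it per cell cannot be told apart.

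**Figure D2:**
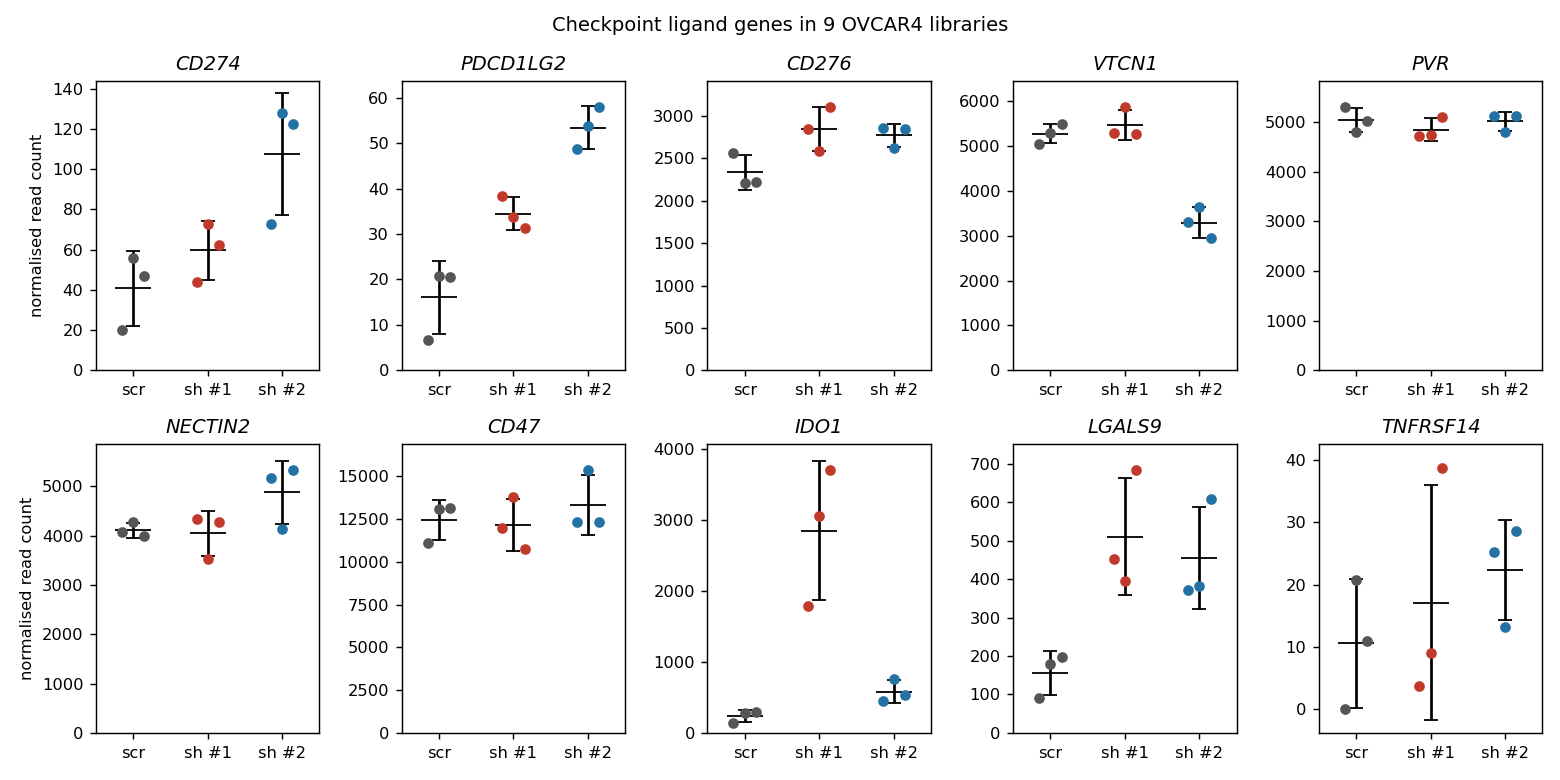
Normalised read counts of each gene in the 9 libraries, with the group mean (horizontal bar) and SD (error bar, n = 3) and 1 point per library, from replicate 1 on the left to replicate 3 on the right. IDO1 peaks with shMPZL3 #1, VTCN1 is low only with shMPZL3 #2 among these groups, and the PVR libraries of the 3 groups overlap.

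Taken one hairpin at a time, 4 of the 10 genes were called higher and 0 lower with shMPZL3 #1, where 16.8% of all genes were called higher and 15.3% lower. With shMPZL3 #2, 4 were called higher and 1 lower, where 9.36% of all genes were called higher and 5.8% lower. IDO1, LGALS9 and PDCD1LG2 were called higher with each hairpin, CD276 passed with shMPZL3 #1 but not with shMPZL3 #2, and CD274 (higher) and VTCN1 (lower) passed with shMPZL3 #2 but not with shMPZL3 #1. Both comparisons use the same 3 control libraries. Compared directly, 2 of the 10 genes were lower with shMPZL3 #2 than with shMPZL3 #1, VTCN1 and IDO1, and 0 were higher, where 7.56% of all genes were called lower and 7.56% higher.

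IDO1, the tryptophan-degrading enzyme (chromosome 8, 39902275 to 39928444, GRCh38), had the largest change of the 10 genes with shMPZL3 #1 and with the hairpins grouped. It measured 142, 282 and 292 normalised read counts in scr control, 1786, 3060 and 3701 under shMPZL3 #1, and 452, 766 and 528 under shMPZL3 #2. No library of a group overlapped with another group, and the scr control and shMPZL3 #1 groups lay furthest apart. With shMPZL3 #1 the log2 fold change was 3.57 (SE 0.28, 11.9-fold, adjusted p = 4.98e-07), and with shMPZL3 #2 it was 1.28 (SE 0.27, 2.42-fold, adjusted p = 0.00385). The direct difference of shMPZL3 #2 minus shMPZL3 #1 was -2.29 (95% interval -2.83 to -1.76, adjusted p = 2.39e-05). In TPM, IDO1 moved from 11.7 ± 4.13 in scr control to 138 ± 50.5 with shMPZL3 #1, between the mean levels of CD276 (80.2) and NECTIN2 (168) in the same cells, and to 27.6 ± 8.22 with shMPZL3 #2. The grouped log2 fold change of 2.84 (SE 0.68, adjusted p = 0.0147) therefore averages groups that differed from each other, and an exact permutation test of 6 against 3 libraries gave p = 0.0238 (two-sided, smallest possible 0.0119).

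LGALS9, which encodes galectin-9 (chromosome 17, 27629798 to 27649560), rose with both hairpins to a like extent. It measured 90.4, 179 and 197 normalised read counts in scr control, 451, 396 and 684 under shMPZL3 #1, and 373, 382 and 608 under shMPZL3 #2. Every knockdown library lay above every control library, while the knockdown groups overlapped. The log2 fold changes were 1.71 (SE 0.26, adjusted p = 0.00015) and 1.55 (SE 0.26, adjusted p = 0.000676), and their direct difference was -0.16 (95% interval -0.68 to 0.35, adjusted p = 0.708). In the grouped comparison the change was 1.63 (SE 0.27, 3.10-fold, adjusted p = 0.00194), and the exact permutation test reached its smallest possible p of 0.0119. Of the 50-base stretches in LGALS9 transcripts, 13.2% also occur in transcripts of other genes, 422 of 6075 in LGALS9C and 249 in AC015688.4. LGALS9B and LGALS9C received 1 read each over all 9 libraries, and AC015688.4, which overlaps LGALS9 on the same strand, received 0. How reads that match or overlap several genes were treated is not given in the sources used here.

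The ligands of PD-1, CD274 and PDCD1LG2, are neighbours on chromosome 9 (5450503 to 5470566 and 5510570 to 5571254) and both were low. CD274 measured 19.9, 55.6 and 46.7 normalised read counts in scr control, 43.9, 72.5 and 62.4 under shMPZL3 #1, and 72.9, 128 and 123 under shMPZL3 #2. The shMPZL3 #1 libraries overlapped with the controls, and those of shMPZL3 #2 lay above every other library, the lowest of them by a margin of less than 1 normalised count. The log2 fold change of CD274 was 0.52 (95% interval -0.20 to 1.24, adjusted p = 0.261) with shMPZL3 #1 and 1.38 (SE 0.33, 2.60-fold, adjusted p = 0.00908) with shMPZL3 #2. The direct difference was 0.86 (95% interval 0.20 to 1.52, adjusted p = 0.0748), which missed the threshold. It passed without a filter on low counts (adjusted p = 0.0197), with the replicate number as a block (0.84, adjusted p = 0.0118) and when scr control replicate 1 or shMPZL3 #2 replicate 1 was left out (adjusted p = 0.0387 and 0.0482). In the grouped comparison the change of 1.02 (SE 0.38) missed the threshold in edgeR (adjusted p = 0.086) and passed it in DESeq2 (adjusted p = 0.0355).

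PDCD1LG2 measured 6.65, 20.8 and 20.6 normalised read counts in scr control, 38.5, 33.8 and 31.2 under shMPZL3 #1, and 48.6, 53.8 and 57.9 under shMPZL3 #2. The 3 groups did not overlap, although the deposited counts behind them were small, from 5 to 22 reads in the controls and from 33 to 77 in the knockdown libraries. The log2 fold change was 1.08 (SE 0.38, adjusted p = 0.0392) with shMPZL3 #1 and 1.71 (SE 0.37, 3.27-fold, adjusted p = 0.00495) with shMPZL3 #2, with a direct difference of 0.63 (95% interval -0.08 to 1.34, adjusted p = 0.228). With shMPZL3 #1 the call was lost without scr control replicate 1, when the change was 0.73 (adjusted p = 0.163), and without each of the 3 shMPZL3 #1 libraries. That control library held the lowest values of CD274, PDCD1LG2, IDO1, LGALS9 and TNFRSF14 among the controls.

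The remaining B7 family members were expressed at a high level and moved less. VTCN1 (chromosome 1, 117143587 to 117210960) measured 5058, 5286 and 5484 normalised read counts in scr control and 5302, 5867 and 5269 with shMPZL3 #1, which overlapped, but 3297, 3633 and 2954 with shMPZL3 #2, below every other library. Its log2 fold change was 0.06 (95% interval -0.15 to 0.26, adjusted p = 0.713) with shMPZL3 #1 and -0.68 (SE 0.10, 0.624-fold, adjusted p = 0.00018) with shMPZL3 #2, and the direct difference was -0.73 (95% interval -0.94 to -0.53, adjusted p = 0.000128). With the hairpins grouped, the VTCN1 change was -0.27 (SE 0.19, adjusted p = 0.372). It passed when the mean of both hairpins was tested in the edgeR fit of 3 groups (-0.31, adjusted p = 0.0113). CD276 (chromosome 15, 73683966 to 73714518) measured 2569, 2215 and 2223 in scr control, 2851, 2592 and 3104 under shMPZL3 #1, and 2856, 2618 and 2850 under shMPZL3 #2. Every knockdown library of CD276 lay above every control, by a small margin, and the changes were 0.29 (SE 0.10, 1.22-fold, adjusted p = 0.038) and 0.25 (SE 0.10, 1.19-fold, adjusted p = 0.107), with a direct difference of -0.04 (95% interval -0.25 to 0.17). The CD276 call with shMPZL3 #1 was lost when scr control replicate 2, scr control replicate 3 or shMPZL3 #1 replicate 3 was left out, with adjusted p-values of 0.16, 0.158 and 0.147.

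The nectin-family ligands and CD47 did not pass the test with either hairpin, and their intervals were narrow. PVR (chromosome 19, 44643798 to 44663583) measured between 4712 and 5299 normalised read counts in all 9 libraries, with log2 fold changes of -0.06 (95% interval -0.25 to 0.13) for shMPZL3 #1 and -0.01 (-0.20 to 0.18) for shMPZL3 #2. NECTIN2 (chromosome 19, 44846175 to 44889228) measured 4069, 4278 and 3983 in scr control, 4342, 3525 and 4279 under shMPZL3 #1, and 5161, 4135 and 5331 under shMPZL3 #2. Its change was -0.02 (95% interval -0.26 to 0.21) with shMPZL3 #1 and 0.25 (0.01 to 0.48, adjusted p = 0.153) with shMPZL3 #2, and the direct difference was 0.27 (adjusted p = 0.119). Without shMPZL3 #2 replicate 2, the lowest NECTIN2 library of that hairpin, both passed, at 0.35 (adjusted p = 0.0364) and 0.38 (adjusted p = 0.0287), and the direct difference also passed with the replicate number as a block (adjusted p = 0.0451). CD47 (chromosome 3, 108043094 to 108091862) measured between 10730 and 15360 in all 9 libraries, with changes of -0.03 (95% interval -0.28 to 0.21) and 0.10 (-0.15 to 0.35). TNFRSF14 (chromosome 1, 2555639 to 2565382) had 0 to 41 reads per library, and its changes of 0.61 (95% interval -1.11 to 2.34) and 1.01 (-0.68 to 2.69) were not resolved at this depth. The libraries did not keep the strand, so reads of genes that overlap on either strand cannot be told apart. PVR overlaps CEACAM19 (906 reads beside 44653 for PVR) and the antisense gene AC243964.2 (193 reads), and the antisense genes overlapping IDO1, NECTIN2 and TNFRSF14 held at most 45 reads each. On the same strand, AC007991.2 overlaps IDO1 (47 reads) and AC015688.4 overlaps LGALS9 (0 reads).

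**Figure D3:**
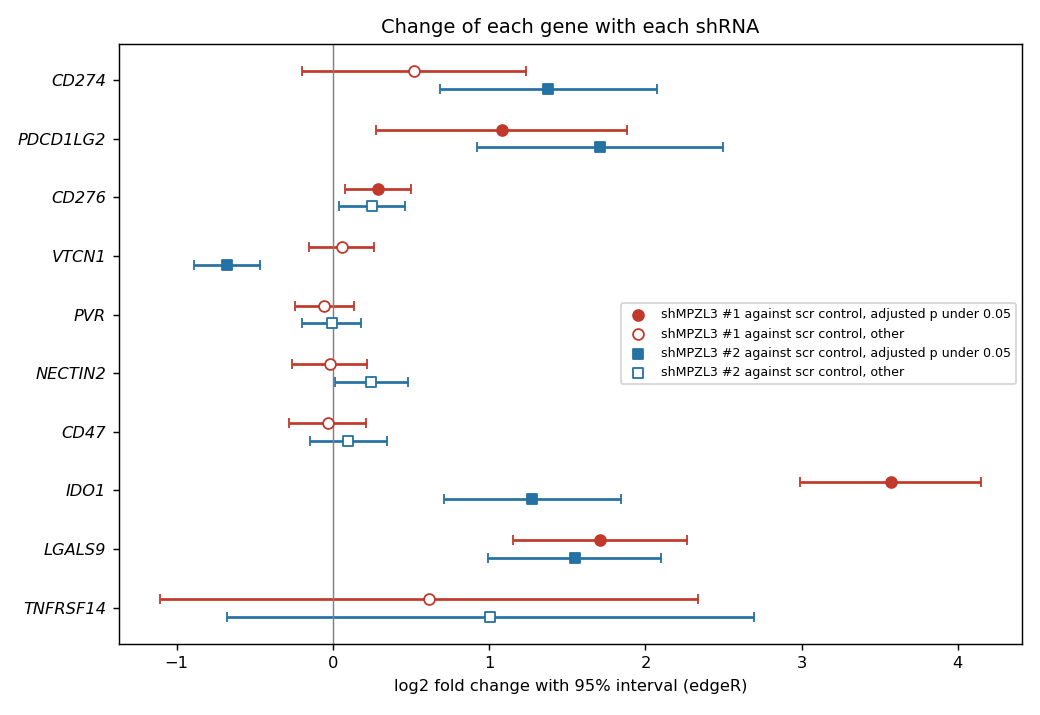
Log2 fold change of each gene against scr control with each hairpin, with the 95% interval from the edgeR fit of 3 groups (3 libraries each). Filled symbols have an adjusted p under 0.05. The intervals of the hairpins are apart for IDO1 and VTCN1 and overlap for the other 8 genes, and those of PVR and CD47 include 0 for both hairpins.

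Other surface proteins, most of them of the same families, were counted from a list written with earlier results of these data known. The list holds B7, butyrophilin and nectin relatives and also CEACAM1, which belongs to another family. Of its 14 tested genes, 7, CEACAM1 among them, rose and 1 fell with the hairpins grouped (median log2 fold change 0.56). Over all genes tested, 9.36% were called higher and 6.4% lower in that comparison. CEACAM1, an adhesion protein that binds itself and HAVCR2, rose from 68.7 ± 12.3 to 471 ± 139.5 and 192 ± 48.3 normalised read counts (scr control, shMPZL3 #1, shMPZL3 #2, n = 3 each), a grouped change of 2.27 (adjusted p = 0.00452). The butyrophilins BTN3A2, BTN3A3 and BTN3A1, which gamma-delta T cells sense, rose by 1.51, 1.39 and 1.06. NECTIN1 and NECTIN4 rose by 0.60 and 0.72, whereas NECTIN3, which can bind PVR and NECTIN2, fell by 0.68 on the log2 scale. BTN3A1 and NECTIN4 did not pass with shMPZL3 #2 alone (adjusted p = 0.0514 and 0.0593). With shMPZL3 #2 compared directly with shMPZL3 #1, 7 of the 14 were lower and 0 higher, among them CEACAM1 at -1.30 (adjusted p = 0.000798). Over all genes tested, 7.56% were called lower and 7.56% higher there. The costimulatory ligands CD80 and CD86 were too low to test, with 4 and 0 reads over all libraries.

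In the grouped comparison 9.36% of all genes tested were called higher and 6.4% lower. Of 12 tested genes on a list around ligands of other inhibitory receptors, 6 rose and 0 fell (median 0.45). Some of the 12 are not themselves such ligands, such as the enzymes ENTPD1 and NT5E and the complement regulators CD55 and CD59. HLA-F, HLA-E and B2M, which form ligands of natural killer cell receptors, rose by 2.34, 0.86 and 0.77, and the ectonucleotidases ENTPD1 (CD39) and NT5E (CD73), which make adenosine from ATP, by 1.08 and 0.63. LGALS3 also rose, by 0.45, whereas LGALS1 had a value of -0.07 (adjusted p = 0.744). LGALS3 did not pass with shMPZL3 #2 alone (adjusted p = 0.08). Among receptors and other partners of the 10 genes, 8 of 15 were too low to test, PDCD1, TIGIT, HAVCR2 and BTLA among them with 3 to 8 reads each. Thrombospondin-1 (THBS1), a secreted partner of CD47, rose from 8569 ± 2716 to 21470 ± 5066 and 22850 ± 2225 normalised read counts. TNFSF14 (LIGHT), a partner of TNFRSF14, rose from 6.16 ± 3.65 to 51.8 ± 14.3 and 18.4 ± 10.1. Both genes were called in the grouped comparison, but TNFSF14 did not pass with shMPZL3 #2 alone (adjusted p = 0.0812).

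With the hairpins grouped, 9.36% of all genes tested were called higher and 6.4% lower. Of 23 genes that act on CD274 transcription or protein stability, 5 rose and 1 fell. Among those that rose, the transcription factor IRF1 rose by 0.88 (adjusted p = 0.000948), the interferon-gamma receptor subunit IFNGR1 by 0.69, the kinase JAK1 by 0.38 and the glycosyltransferase B4GALT1 by 0.51. JAK1 did not pass with shMPZL3 #2 alone (adjusted p = 0.0531). The gene that fell was PTPN2, a phosphatase that acts on JAK kinases, with -0.43 (adjusted p = 0.0181). CMTM6, which protects PD-L1 from degradation, had a value of -0.36 (adjusted p = 0.0595). Of 15 tested genes of tryptophan and kynurenine metabolism around IDO1, 0 passed in the grouped comparison, 4 rose and 2 fell with shMPZL3 #1, and 4 rose and 1 fell with shMPZL3 #2, to be read against the 16.8% and 15.3% of all genes called higher and lower with shMPZL3 #1 and the 9.36% and 5.8% with shMPZL3 #2. The aryl hydrocarbon receptor targets CYP1A1 and CYP1B1, which kynurenine can induce, rose with shMPZL3 #1 by 1.07 and 0.95 and had values of -0.27 and -0.28 with shMPZL3 #2. The direct differences were -1.34 (adjusted p = 7.29e-05) and -1.23 (adjusted p = 0.000171). TIPARP, another target of this receptor, went the other way, with -0.22 for shMPZL3 #1, a rise of 0.47 with shMPZL3 #2 (adjusted p = 0.0432) and a direct difference of 0.69 (adjusted p = 0.00534). The tryptophanyl-tRNA synthetase WARS and the amino acid transporter genes SLC7A5 and SLC3A2 rose with shMPZL3 #2 by 0.77, 0.58 and 0.54, with values of -0.08, -0.09 and 0.02 for shMPZL3 #1. Of 11 genes of CD47 maturation and engulfment signals, 0 passed in the grouped comparison.

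The ligand genes that rose moved beside lists of interferon and NF-kB target genes. Of 20 type I interferon-stimulated genes 19 rose and 0 fell (median log2 fold change 2.59). Of 16 tested interferon-gamma-responsive genes 13 rose and 0 fell (median 0.95), and of 18 NF-kB target genes 14 rose and 0 fell (median 1.18). Over all genes tested, 9.36% were called higher and 6.4% lower in this grouped comparison. The antiviral genes OAS2, IFI44L, OAS1 and IFI6 rose by 5.54, 5.26, 5.04 and 4.69. The chemokine CXCL10, the antigen peptide transporter TAP1, the immunoproteasome subunit PSMB9 and the GTPase GBP4 rose by 2.18, 2.11, 1.61 and 1.32. The chemokines CXCL3, CXCL1 and CXCL2 and the apoptosis inhibitor BIRC3 rose by 2.51, 2.21, 2.17 and 2.10. These are grouped values, and for CXCL3, CXCL1 and CXCL2 they average hairpins that differed from each other. Their changes were 0.95, 0.79 and 1.00 with shMPZL3 #1 and 3.23, 2.91 and 2.80 with shMPZL3 #2. IFI44L and OAS1 also differed directly, by 1.25 and 1.40 (adjusted p = 0.0415 and 0.00745). IRF1 stands on the interferon-gamma list as well as among the regulators of CD274, and ICAM1 on the interferon-gamma and NF-kB lists. The summed level of the type I list was 226 to 350 CPM (reads scaled to the library total) in scr control, 759 to 1754 under shMPZL3 #1 and 1518 to 1792 under shMPZL3 #2. That of the NF-kB list was 862 to 1278, 1555 to 1957 and 2589 to 3056 CPM, and that of the interferon-gamma list 754 to 986, 1461 to 2005 and 1601 to 1823 CPM. IDO1 ran in another order, with 87.0 to 180 CPM with shMPZL3 #1 and 21.99 to 37.3 with shMPZL3 #2. CD274 and PDCD1LG2 had their highest values with shMPZL3 #2, as did the NF-kB and type I lists, although the type I list overlapped between the hairpins. The part of these lists in the ligand values was not tested.

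**Figure D4:**
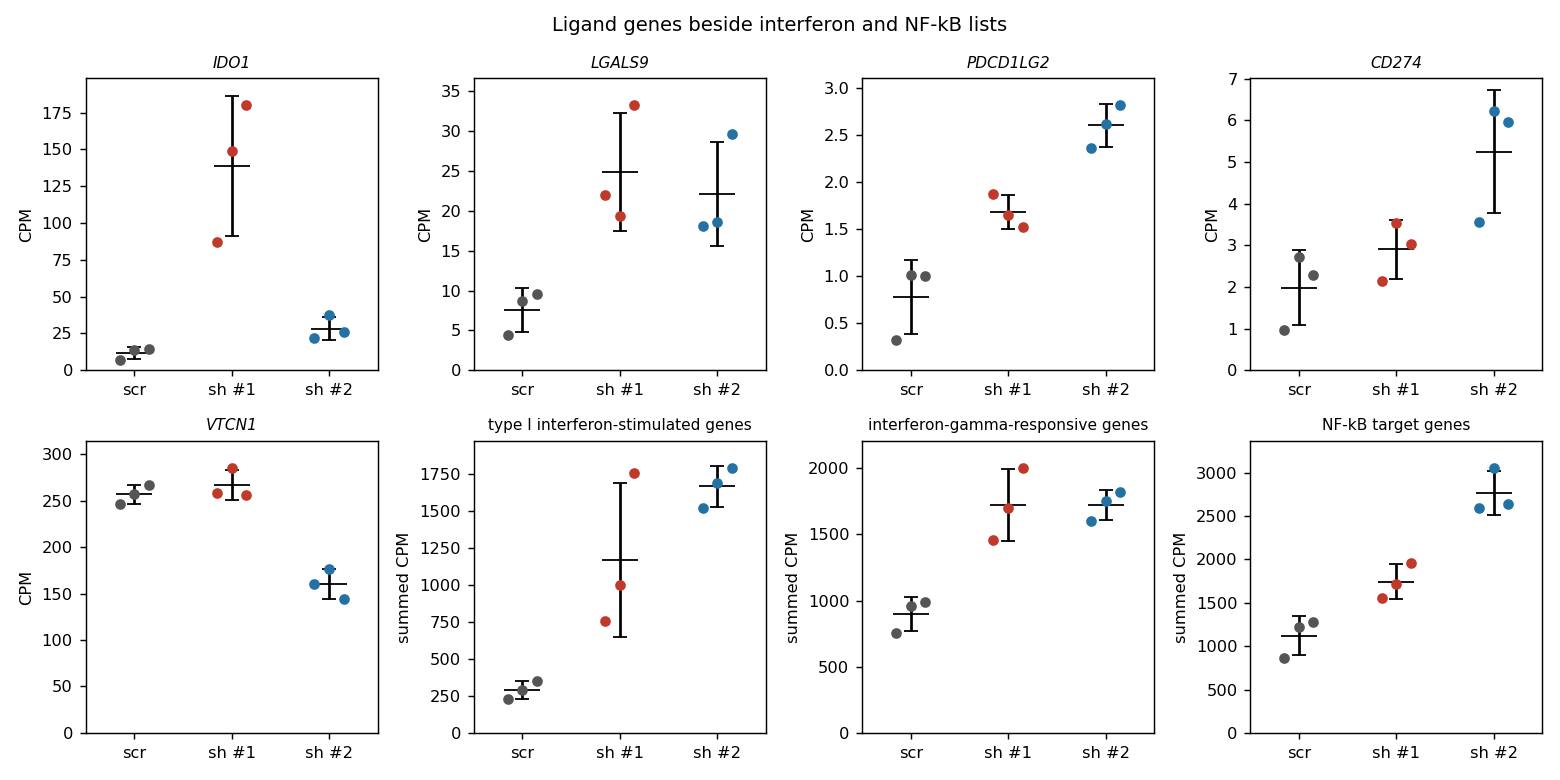
CPM of 5 ligand genes and summed CPM of the type I interferon, interferon-gamma and NF-kB lists in the 9 libraries (points), with group mean and SD (n = 3). The NF-kB and type I interferon lists have higher means with shMPZL3 #2 than with shMPZL3 #1, as has CD274 (direct difference not called), IDO1 the other way round, and LGALS9 overlaps between the hairpins.

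In the grouped comparison, where 9.36% of all genes tested were called higher and 6.4% lower, other lists were counted as well. Ligands of the TNF superfamily and other members of the TNF receptor superfamily, to which TNFRSF14 belongs, gave 4 of 15 tested higher and 0 lower. TNFRSF9 (4-1BB), CD40, the death receptor FAS and the TRAIL receptor TNFRSF10B rose by 1.61, 1.03, 0.67 and 0.37. FAS did not pass with shMPZL3 #2 alone (adjusted p = 0.0618), and TNFRSF10B did not with shMPZL3 #1 alone (adjusted p = 0.0689). The cells were a line grown alone, and markers of other cell types were low. The summed level of 18 leukocyte markers was 4.86 to 7.21 CPM in scr control, 9.05 to 11.9 under shMPZL3 #1 and 8.68 to 12.6 under shMPZL3 #2, of which 6 could be tested and 3 rose (CSF1R by 1.00, CD14 by 1.60 and ITGAM by 2.01). The defining markers MS4A1 and TYROBP had 0 reads in all 9 libraries, and CD3D, CD3E and CD3G had 3, 4 and 1. Of 8 fibroblast markers 4 could be tested and 2 rose, LUM by 1.15 and COL1A1 by 1.05, with a summed level of 18.9 to 23.2 CPM in scr control, 43.5 to 63.1 under shMPZL3 #1 and 34.7 to 38.2 under shMPZL3 #2, and DCN had 0 reads. Of 4 tested endothelial markers 0 passed in the grouped comparison, at 8.22 to 17.1 CPM, and CDH5 rose with shMPZL3 #2 by 1.05 (adjusted p = 0.00282). Of 12 tested epithelial markers 1 rose in the grouped comparison, WFDC2 by 1.27, at 6315 to 8115 CPM. With shMPZL3 #1, 5 rose and 1 fell, the one that fell being MUC16 with -0.61 (adjusted p = 0.00739), and 1 rose with shMPZL3 #2. Over all genes tested, 16.8% were called higher and 15.3% lower with shMPZL3 #1, and 9.36% and 5.8% with shMPZL3 #2. The part of these markers in the ligand values was not tested.

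Among 11916 protein-coding genes, the 3 whose log2 CPM over the 9 libraries had the highest Pearson correlation with each gene called for both hairpins are given as a description, since the points share library and depth. For IDO1 they were the interferon-inducible GTPase GBP2 (0.993), the lysosomal galactosidase GLB1 (0.99) and FILIP1L (0.99). GBP2 measured 1563 normalised read counts in scr control, 5013 under shMPZL3 #1 and 2612 under shMPZL3 #2. In the same order GLB1 measured 2367, 3737 and 2801, and FILIP1L 317, 1097 and 505. All 3 had the same order of groups as IDO1, which follows from their choice by correlation and is no separate result. For LGALS9 they were the deacetylase HDAC6 (0.99), the endothelin-converting enzyme ECE1 (0.99) and the membrane repair protein DYSF (0.985), and for PDCD1LG2 they were RELL1 (0.987), the receptor ROR1 (0.977) and MTCL1 (0.976).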

How the data were processed

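Poly-A selected libraries without strand information were made from total RNA of OVCAR4 cells and sequenced on the Illumina NovaSeq platform. Per the labels, the authors deposited raw counts per gene, not normalised; the submitters' processing notes name HISAT2 2.0.5, featureCounts 1.5.0-p3 and hg38. Counting options and the annotation are not given in the sources used here, but the deposited gene lengths equal GENCODE 29 exon lengths for all 58735 genes. The authors' own comparisons were not used.

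Counts were tested with edgeR 4.0.16 (TMM, filterByExpr, quasi-likelihood test, R 4.3.3, two-sided) over 16928 genes with Benjamini-Hochberg adjustment and a threshold of 0.05. The grouped comparison set 6 knockdown against 3 scr control libraries, and the others were contrasts in a fit of 3 groups. DESeq2 1.42.0, other normalisations and filters, the replicate number as a block and leaving out each library were alternatives. SE is the log2 fold change divided by the square root of the F statistic. Log2 CPM used a prior count of 2, and exact permutation tests used scipy 1.17.1. With 3 against 3 libraries the smallest exact p is 0.1. TPM used the deposited gene lengths. The fitting was tested on simulated data. The labels give 3 replicates per group and the study's methods call them biological; p-values measure the spread between these libraries. Depth was 15040102 to 27835841 counts per library, and TMM factors ran from 0.983 to 1.03.

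The 10 genes and all lists were chosen with earlier results of these data known. Text names all 10 genes, and from each list at most 4 genes called in the grouped comparison with a mean log2 CPM of at least 1 and the largest change, plus, for each gene called with both hairpins, the 3 most correlated genes; other genes named were chosen after their values were seen.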

Additional observations from a re-analysis of the deposited data

Results flagged for a closer look

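The effects of the hairpins differed from each other, by the direct edgeR test of shMPZL3 #2 minus shMPZL3 #1, for VTCN1 (-0.73 on the log2 scale, adjusted p = 0.000128) and for IDO1 (-2.29, adjusted p = 2.39e-05). For VTCN1 all 3 libraries of shMPZL3 #2 lay below all 3 of shMPZL3 #1, and for IDO1 likewise. Each difference held in all alternatives tried, from -0.81 to -0.67 for VTCN1 and from -2.55 to -2.06 for IDO1. MPZL3 itself was 2.43-fold higher with shMPZL3 #2 than with shMPZL3 #1, so depth of depletion and hairpin sequence cannot be told apart in this design.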

How the results depend on the processing

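The counts of genes called changed with the setting as follows. In the grouped comparison 3 higher and 0 lower became 5 higher and 1 lower when the mean of both hairpins was tested in the fit of 3 groups. The added edgeR calls were CD274 (adjusted p = 0.025) and CD276 (0.0316), both higher, and VTCN1 (0.0113), lower. With DESeq2 or without a filter on low counts 4 were higher, CD274 being added. With at least 10 counts in every library the grouped change of CD276 passed (adjusted p = 0.043). Leaving out 1 library gave 1 to 3 higher in the grouped comparison (1 without any control library), 2 to 4 with shMPZL3 #1, 4 to 5 with shMPZL3 #2 (5, with NECTIN2, without shMPZL3 #2 replicate 2) and 0 to 1 for shMPZL3 #2 against shMPZL3 #1, where no filter also gave 1. The calls of LGALS9 in the grouped comparison and with each hairpin, of IDO1 and PDCD1LG2 with shMPZL3 #2, of IDO1 with shMPZL3 #1 and of CD274 and VTCN1 with shMPZL3 #2 held in all alternatives in which they were fitted. PDCD1LG2 and TNFRSF14 could not be fitted with at least 10 counts in every library.

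Values that changed sign were small or imprecise, and the cause was not tested. With shMPZL3 #1, NECTIN2 was 0.01 with upper-quartile normalisation and 0.016 with at least 10 counts in every library. Under that filter CD47 with shMPZL3 #1 was 0.003, and PVR with shMPZL3 #2 was 0.012. Leaving out 1 library moved CD47 from -0.05 to 0.079 (grouped), -0.132 to 0.048 (shMPZL3 #1) and -0.019 to 0.165 (shMPZL3 #2), NECTIN2 from -0.063 to 0.069 and TNFRSF14 from -0.816 to 1.63 (shMPZL3 #1), and PVR from -0.042 to 0.021 (shMPZL3 #2). For shMPZL3 #2 against shMPZL3 #1 it moved CD276 from -0.101 to 0.029, LGALS9 from -0.443 to 0.105 and TNFRSF14 from -0.095 to 1.829.

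Replicate numbers could not be taken as pairs, since the labels tie them to no shared batch and the deviations of same-numbered libraries correlated at -0.001 to 0.218, not all over 0.1, beside -0.147 to 0.067 for libraries with different numbers. Between the hairpins alone, same-numbered libraries had 0.097 to 0.218 and the others -0.147 to 0.004, so that each library there correlated best with its own number, a hint from the data and not from the design. With the replicate number as a block, 2 genes (CD274 and NECTIN2) in place of 0 were higher with shMPZL3 #2 than with shMPZL3 #1, 5 in place of 4 were higher with shMPZL3 #2 than in scr control, and 3 and 4 were higher in the grouped and shMPZL3 #1 comparisons as before. Depth limits TNFRSF14, CD274 and PDCD1LG2, which had 0 to 59 reads in a control library.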
